A study of Mus musculus with 24 samples.

Results

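The 8 genes that make, break down or import the amino acid arginine (Ass1, Asl, Arg1, Arg2, Nos2, Odc1, Slc7a1 and Slc7a2) were followed in murine tumour cells isolated after dormancy and in the parental cells from which they derive. They were chosen by their place in arginine metabolism, after a large rise of Ass1 had been seen in these same arrays of dormant leukemia cells. Members were found by matching the RefSeq accession of each probe to the gene, which gave 9 probes for the 8 genes, out of 56605 probes on the array. Odc1 had 2 probes and every other member had 1.

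Total RNA was hybridized in one colour to 24 Agilent mouse expression arrays, on 3 slides of 8 arrays. All melanoma lines are B16-F1 cells that carry GFP. They comprised the parental line (B16-M, 3 arrays), cells isolated late in dormancy (B16-D, 4 arrays) and a second generation of dormant cells recovered from the brain (B16-D-733, 4 arrays, and B16-D-735 and B16-D-739, 3 arrays each). The leukemia lines, myeloid DA1-3b cells, were labelled M0-p20 (parental, 4 arrays) and J365-p20 (dormant, 3 arrays). That these labels are DA1-3b and DA1-3b/D365 was inferred from the single leukemia comparison of the study, and which brain line of the study bears which number is not given in the labels. Dormancy had been set up in syngeneic mice by vaccination with irradiated cells that overexpressed interleukin-12 (leukemia) or GM-CSF (melanoma), whereas the parental cells had not passed through this process. The melanoma lines were grown in DMEM with fetal bovine serum, and all cells were amplified in culture before RNA was taken, and each line is a single derived line, so that the arrays of a line repeat that line and not the isolation from a mouse. Nothing in the labels says that arrays of a line came from separate cultures, and p-values then measure only the spread between arrays, which may be technical.

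Arginine is built from citrulline in a pair of steps: argininosuccinate synthase (Ass1) joins citrulline to aspartate, and argininosuccinate lyase (Asl) splits the product into arginine and fumarate. Arginases (Arg1 in the cytosol, Arg2 in mitochondria) cut arginine to ornithine and urea, nitric oxide synthases such as Nos2 turn it into nitric oxide and citrulline, and ornithine decarboxylase (Odc1) commits ornithine to the polyamines. Cells also take up arginine through cationic amino acid transporters, among them Slc7a1 and Slc7a2. Loss of Ass1 expression is known in several tumour types, including melanoma, and makes such cells depend on arginine from outside.

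The promoter of Ass1 is shown because this gene carries the largest difference between dormant and parental cells among the members. Those of Odc1 and Slc7a1 are shown because the array numbered 0 was the highest of every line for both, as described further on. Sequences are the 250 bases before the start of the transcript, 5′ to 3′ on the strand of the gene, from RefSeq annotation on build GRCm38.p6. Capitals mark matches, on either strand, to an E-box (CACGTG) or a GC box (GGGCGG), and no match overlapped another. The TATA box (TATAAA), the CRE (TGACGTCA) and CCAAT were searched for as well and were not in these 3 windows.
Ass1, chr2:31470020-31470269, plus strand: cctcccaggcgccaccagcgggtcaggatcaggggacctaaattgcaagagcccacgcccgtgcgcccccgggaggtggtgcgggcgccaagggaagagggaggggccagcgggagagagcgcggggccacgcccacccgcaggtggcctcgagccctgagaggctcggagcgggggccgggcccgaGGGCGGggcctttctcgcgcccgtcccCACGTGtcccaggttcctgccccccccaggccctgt
Odc1, chr12:17544623-17544872, plus strand: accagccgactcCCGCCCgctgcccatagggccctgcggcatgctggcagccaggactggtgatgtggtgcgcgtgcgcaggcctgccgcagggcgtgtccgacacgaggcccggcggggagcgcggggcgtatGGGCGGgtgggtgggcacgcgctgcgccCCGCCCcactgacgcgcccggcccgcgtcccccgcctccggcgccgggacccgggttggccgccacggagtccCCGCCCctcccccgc
Slc7a1, chr5:148399905-148400154, minus strand: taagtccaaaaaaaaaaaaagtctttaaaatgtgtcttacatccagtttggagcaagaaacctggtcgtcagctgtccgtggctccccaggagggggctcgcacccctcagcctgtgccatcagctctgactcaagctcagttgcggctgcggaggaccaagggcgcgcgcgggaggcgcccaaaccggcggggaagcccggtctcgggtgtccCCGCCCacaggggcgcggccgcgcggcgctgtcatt
The Ass1 window held 1 E-box, whose first base is 36 bases before the start, and 1 GC box, 63 bases before it. Of 32851 promoter windows of the same length, 6.02% held an E-box, 32.7% a GC box, 12.4% a TATA box, 1.55% a CRE and 33.8% CCAAT. The Odc1 window held 4 GC boxes and no E-box, and the Slc7a1 window held 1 GC box, 36 bases before the start. Slc7a1 has another annotated start, whose window is not shown. These matches describe the letters of the windows and were not tested against the expression of the genes.

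Levels are log2 intensities relative to the 75th percentile of the same array, so that a level of 0 is the brightness that 75% of the spots stay below and each unit is a doubling. A probe counted as detected where the scanner software marked its signal as well above background. On 23 arrays between 46.0% and 55.8% of the spots were detected, whereas B16-D replicate 2 stood apart with 90.3%, and it was left out of the comparisons. The lowest of the 23 was B16-D replicate 0, and the next was M0-p20 replicate 1 with 49.5%. The lines matched their tissue, with 7 of 7 pigment cell markers detected in every melanoma line and 7 of 7 haematopoietic markers in both leukemia lines. Of the haematopoietic markers 2 (Coro1a and Lcp1) were also detected in the melanoma lines. Of the pigment cell markers 4 of 7 were detected in M0-p20 and 3 of 7 in J365-p20, among them Mitf, Sox10 and Tyr in both, whereas Tyrp1, Dct and Mlana were detected on no leukemia array.

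Ass1 was the one member with a large difference in dormant leukemia. Its level was -2.07, -2.81, -2.23 and -1.95 on the 4 arrays of M0-p20, against 3.18, 2.91 and 3.08 on the 3 arrays of J365-p20. The arrays of the lines did not overlap. Nor did those of 8.4% of all probes, a share that counts gaps of any size. The Ass1 probe was detected on all 7 arrays. J365-p20 exceeded M0-p20 by 5.32 on the log2 scale (SE 0.23, n = 3 and 4), a 40.0-fold difference, which is given as a description because the gene was chosen for it. The difference was 5.89, 5.19 and 5.14 within the 3 slides. The transcribed pseudogene Gm5424 is a near copy of Ass1 and had no probe of its own here, so signal from the copy cannot be told apart from that of the gene.

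**Figure D1:**
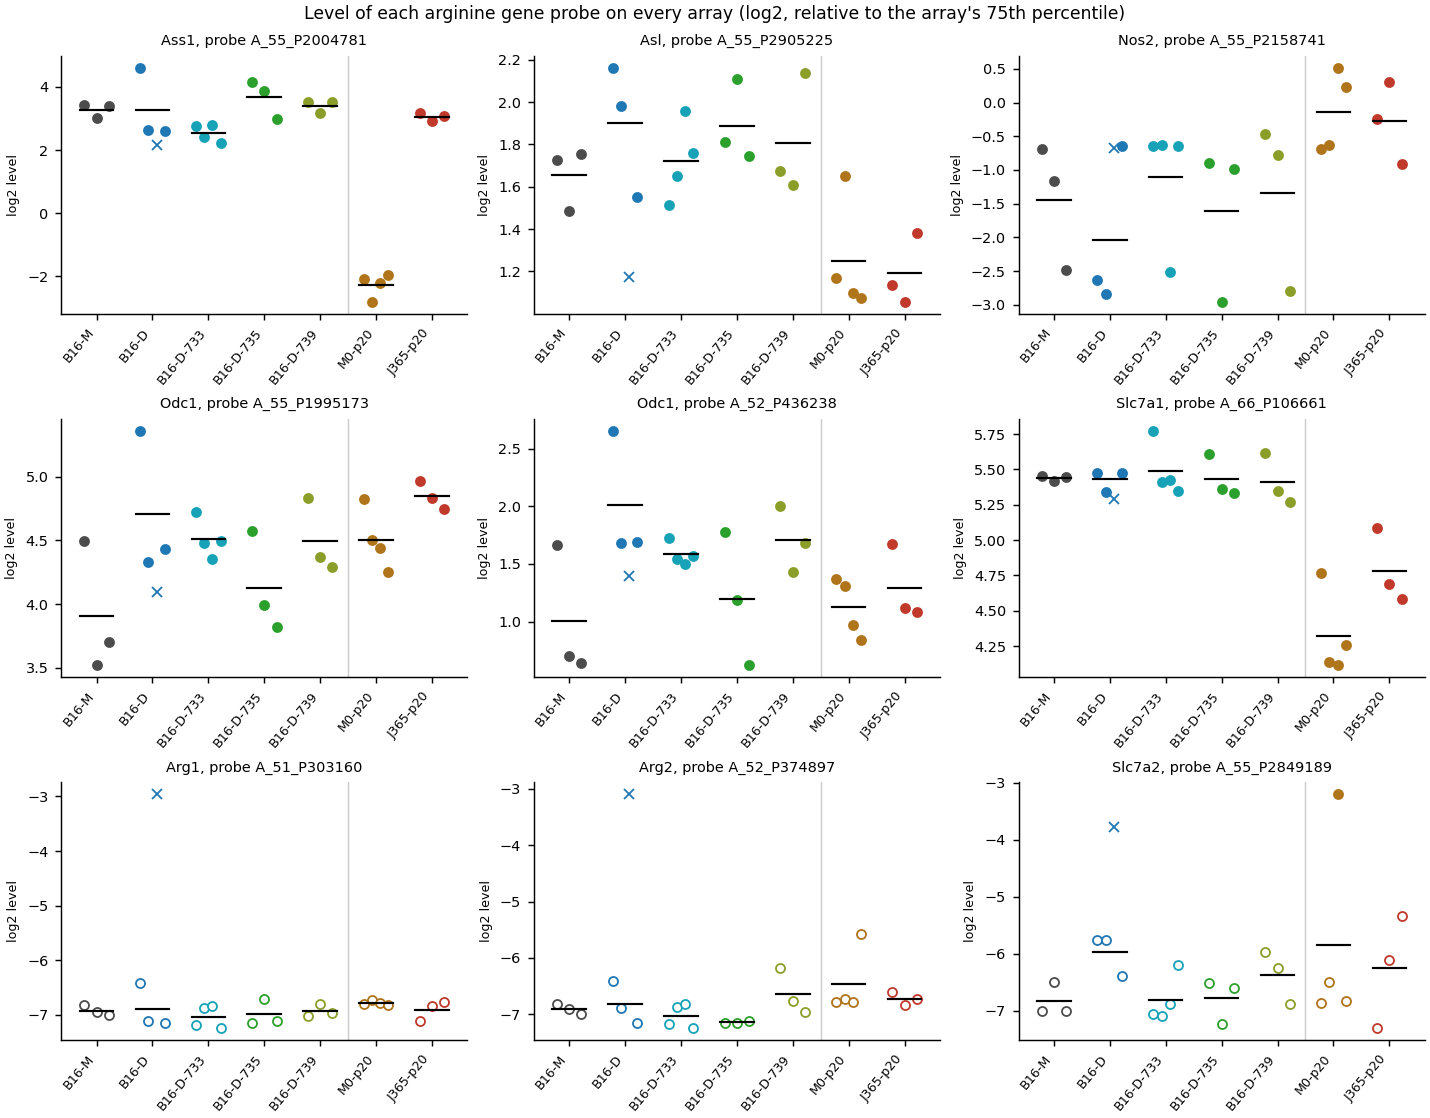
Level of each of the 9 probes (log2, relative to the 75th percentile of the array) on every array of the 7 lines, with a scale of its own in each panel. Filled points were detected, open points were not, bars are line means and the cross is B16-D replicate 2, which is not in the mean. Ass1 separates M0-p20 from all other lines, Slc7a1 is lower in both leukemia lines than in melanoma, and Arg1, Arg2 and Slc7a2 lie near the background.

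Parental leukemia stood apart from all other lines in its Ass1 level, and dormant leukemia lay among the melanoma lines. Ordered by mean level, B16-D-735 (3.67), B16-D-739 (3.41), B16-D (3.28), B16-M (3.28), J365-p20 (3.06) and B16-D-733 (2.55) were followed by M0-p20 (-2.27). In this order neighbours overlapped in their arrays, except that J365-p20 lay above B16-D-733 and B16-D-733 above M0-p20.

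In melanoma no line passed the test for Ass1. The level was 3.42, 3.01 and 3.40 in B16-M. It was 4.61, 2.64 and 2.60 on replicates 0, 1 and 3 of B16-D, so that replicate 0 lay above and the other 2 below every parental array. The difference of 0.01 (SE 0.45, limma adjusted p = 0.994) therefore rested on B16-D replicate 0, and without it the value was -0.65 (adjusted p = 0.298). B16-D-733 had 2.75, 2.42, 2.80 and 2.22, all below the parental arrays. Its difference of -0.72 (SE 0.42) gave an adjusted p of 0.412 in limma, and an exact two-sided permutation test gave p = 0.0286, the smallest that 35 divisions of the arrays allow. Within the 3 slides the difference was -0.60, -0.25 and -1.09. In this comparison 19.4% of all probes tested had arrays that did not overlap. In B16-D-735 the level was 4.14, 3.88 and 2.99 (difference 0.40, adjusted p = 0.795), and in B16-D-739 it was 3.52, 3.19 and 3.53 (difference 0.14, adjusted p = 0.980). The B16-D change minus the leukemia change was -5.31 (SE 0.55), again a description, since it holds the leukemia value that chose the gene.

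The rest of the pathway was then compared in leukemia to see whether the Ass1 rise was joined by other members. Of the other 7 genes, 4 (Asl, Nos2, Odc1 and Slc7a1, 5 probes) were detected on enough arrays to be tested, and 0 of the 5 probes passed an adjusted p of 0.05 by limma, where 0.998% of all 29457 probes passed. Before adjustment 0 of the 5 had a p under 0.05 either, against 7.05% of all probes. Their differences ran from -0.14 to 0.46 with a median of 0.17, and the median over all probes was -0.01. Arg1, Arg2 and Slc7a2 were not tested, because they were detected on fewer than 3 arrays.

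**Figure D2:**
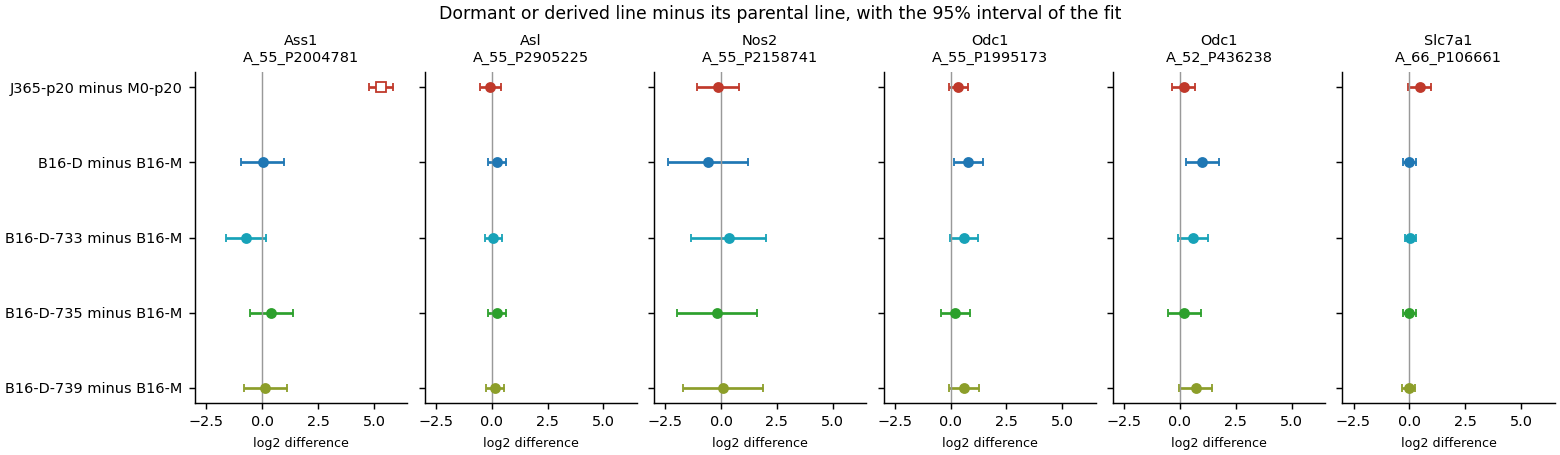
Difference of each line from its parental line (log2) for the 6 member probes that could be fitted, with the 95% interval from limma. The open square is the Ass1 value that chose the gene, at 5.32, and its interval is a description and no test. The intervals are not adjusted for the number of probes. Of the others, all but those of both Odc1 probes in B16-D include 0, and neither of these probes passed the adjusted threshold.

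Asl, the partner of Ass1 in arginine synthesis, was at 1.17, 1.65, 1.10 and 1.07 in M0-p20 and at 1.14, 1.06 and 1.38 in J365-p20. The arrays of the lines overlapped, and the difference was -0.06 (SE 0.20, 95% interval -0.52 to 0.41, adjusted p = 0.975 by limma). A rise of Asl of the size seen for Ass1 lay outside this interval. In melanoma its difference from B16-M was 0.24 in B16-D, 0.07 in B16-D-733, 0.23 in B16-D-735 and 0.15 in B16-D-739, with adjusted p from 0.549 to 0.947. All melanoma lines together spanned 1.49 to 2.16. The Asl probe also varied with the slide among the melanoma arrays (adjusted p = 0.00670 for slide, where 29.1% of all probes passed).

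Slc7a1, which carries arginine, lysine and ornithine into the cell, was at 4.77, 4.14, 4.12 and 4.25 in M0-p20 and at 5.09, 4.69 and 4.58 in J365-p20. Of the dormant arrays 1 lay above every parental array, and the other 2 lay below the highest of them. The difference was 0.46 (SE 0.23, 95% interval -0.06 to 0.99, adjusted p = 0.793 by limma), and within the 3 slides it was 0.44, 0.57 and 0.57. An exact two-sided permutation test gave p = 0.114. Melanoma lines all lay between 5.27 and 5.77, above both leukemia lines. Their differences from B16-M ran only from -0.03 to 0.05, with adjusted p from 0.943 to 0.998 by limma. For B16-D-739 the 95% interval ran from -0.31 to 0.26.

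Nos2, the inducible nitric oxide synthase, was at -0.68, -0.62, 0.52 and 0.24 in M0-p20 and at -0.24, 0.31 and -0.91 in J365-p20, with overlapping arrays and a difference of -0.14 (SE 0.40, adjusted p = 0.973 by limma). In melanoma the slide and not the line separated the arrays. The 6 melanoma arrays of slide 1 lay between -2.96 and -2.48, the 4 of slide 2 between -1.16 and -0.65, and the 6 of slide 3 between -0.98 and -0.46. Every melanoma line had 1 or 2 arrays on slide 1, which gave each line a wide spread. The slide term of the melanoma fit had an adjusted p of 1.78e-07 for Nos2, and 0.254 in leukemia (1.79% of all probes passed there), where slide 1 also held the lowest dormant array. Differences from B16-M were -0.60, 0.33, -0.17 and 0.10 in B16-D, B16-D-733, B16-D-735 and B16-D-739 (adjusted p from 0.752 to 0.996). With slide as a block they became 0.01, 0.15, -0.17 and 0.10, with adjusted p from 0.530 to 0.972. What the slides differed in is not given in the sources used here.

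**Figure D3:**
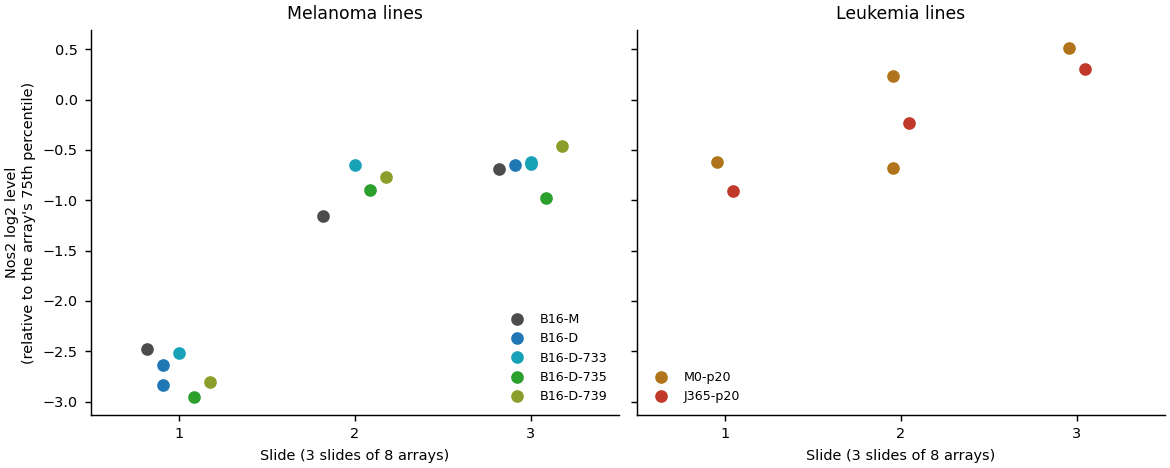
Nos2 level (log2, relative to the 75th percentile of the array) by slide, in the 16 melanoma arrays compared and the 7 leukemia arrays, 1 point per array coloured by line. Melanoma arrays of slide 1 lie between -2.96 and -2.48, below all arrays of the other slides, whichever line they hold.

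Arg1 and Arg2, the arginases, were detected on none of the 23 arrays compared. Both were marked as detected on B16-D replicate 2 alone, at -2.95 and -3.09, the array on which 90.3% of all spots were so marked. Their levels on the other arrays were -7.24 to -6.42 for Arg1 and -7.24 to -5.57 for Arg2, and no change is given for values that are not well above background. Slc7a2, the transporter that is also found in macrophages and liver, was detected on M0-p20 replicate 2 (-3.20), while the other 3 arrays of that line were not well above background. Besides this array it was detected on B16-D replicate 2 (-3.79).

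Odc1 was the member that stood nearest to a call in melanoma. On its brighter probe (A_55_P1995173) the level was 4.50, 3.52 and 3.70 in B16-M and 5.36, 4.33 and 4.43 on replicates 0, 1 and 3 of B16-D. The parental replicate 0 lay among the dormant arrays, and the other parental arrays lay below them. The difference was 0.80 (SE 0.31, unadjusted p = 0.0222, adjusted p = 0.183 by limma). The other probe (A_52_P436238) gave 1.67, 0.70 and 0.64 against 2.65, 1.69 and 1.69, without overlap, a difference of 1.00 (SE 0.34, adjusted p = 0.129) and an exact two-sided permutation p of 0.1, the smallest that 20 divisions allow. Arrays did not overlap for 18.9% of all probes in this comparison, an unadjusted p under 0.05 was met by 18.0%, and 3.78% passed the adjusted threshold. Within slides the difference was 1.14 on slide 1 and -0.07 on slide 3 for the brighter probe, and 1.53 and 0.02 for the other. With slide as a block it was 0.84 (adjusted p = 0.172) and 1.03 (adjusted p = 0.140). Without B16-D replicate 0 it was 0.47 and 0.68. Both probes measure the same RNA and are not independent.

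B16-D-733 (4.72, 4.48, 4.35 and 4.50 on the brighter probe) and B16-D-739 (4.83, 4.37 and 4.29) lay above B16-M by 0.60 and 0.59, with adjusted p of 0.292 and 0.44. In B16-D-735 (4.57, 3.99 and 3.82) the difference was 0.22. Same-numbered arrays of B16-D-733 and B16-M deviated together, but the labels name no pairs. The replicate number was also fitted as a block shared by all melanoma lines, which is not a paired test. With it the Odc1 difference in B16-D-733 was 0.64 on the brighter probe (adjusted p = 0.0301 by limma). On the other probe it was 0.62 (adjusted p = 0.0936). The block thus turned 1 of the 2 probes into a call. In B16-D-739, whose same-numbered arrays lie on the same slides as those of B16-M, the blocked values were 0.59 (adjusted p = 0.0616) and 0.70 (adjusted p = 0.0871). In leukemia Odc1 was at 4.82, 4.51, 4.44 and 4.25 in M0-p20 and at 4.96, 4.83 and 4.75 in J365-p20, a difference of 0.34 (SE 0.18, adjusted p = 0.835), and the other probe gave 0.17 (adjusted p = 0.946). For the B16-D change minus the leukemia change, 0 of the 5 probes of Asl, Nos2, Odc1 and Slc7a1 passed (1.24% of all probes did), with values from -0.47 for Slc7a1 to 0.84 for the dimmer Odc1 probe.

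Across all melanoma comparisons 0 of 6 member probes passed in any line, while 3.78% of 31344 probes passed in B16-D, 5.62% in B16-D-733, 5.01% in B16-D-735 and 3.71% in B16-D-739. Before adjustment, 2 member probes had a p under 0.05 in B16-D, both of Odc1, and 0 in B16-D-733, B16-D-735 and B16-D-739, where 18.2%, 17% and 14.3% of all probes did. All 4 comparisons share the B16-M arrays.

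Odc1 and Slc7a1 shared a pattern that did not follow the lines. The array numbered 0 was the highest of its line for both Odc1 probes and for Slc7a1 in 7 of 7 lines, a pattern met by 1.0% of the 26788 probes tested in both models. For Ass1 it held in 4 of 7 lines, for Nos2 in 3 and for Asl in 1. On the brighter Odc1 probe replicate 0 exceeded the mean of its line by 0.59 in B16-M and by 0.65 in B16-D. For Slc7a1 it was barely the highest array in these lines. It stood at 5.453 against 5.447 on the next array in B16-M, and at 5.476 against 5.475 in B16-D. These replicate 0 arrays lie on all 3 slides. In B16-D and B16-D-733 the titles of all arrays but replicate 0 carry a date, the same one, while no array of any other line does, and what the date refers to is not given in the sources used here. Dated arrays hold no B16-M, so that date and line cannot be told apart there. The arrays without a date were 1 of B16-D and 1 of B16-D-733 against 3 of B16-M. With these alone the brighter Odc1 probe differed by 1.45 in B16-D and by 0.81 in B16-D-733. Ass1 differed by 1.33 and -0.52. A single array gives no spread for its line, so these values are a description. The B16-D array among them, replicate 0, also had the lowest share of detected spots of the arrays compared. The part of this pattern in the Odc1 values was not tested, beyond the fits with the replicate number as a block.

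**Figure D4:**
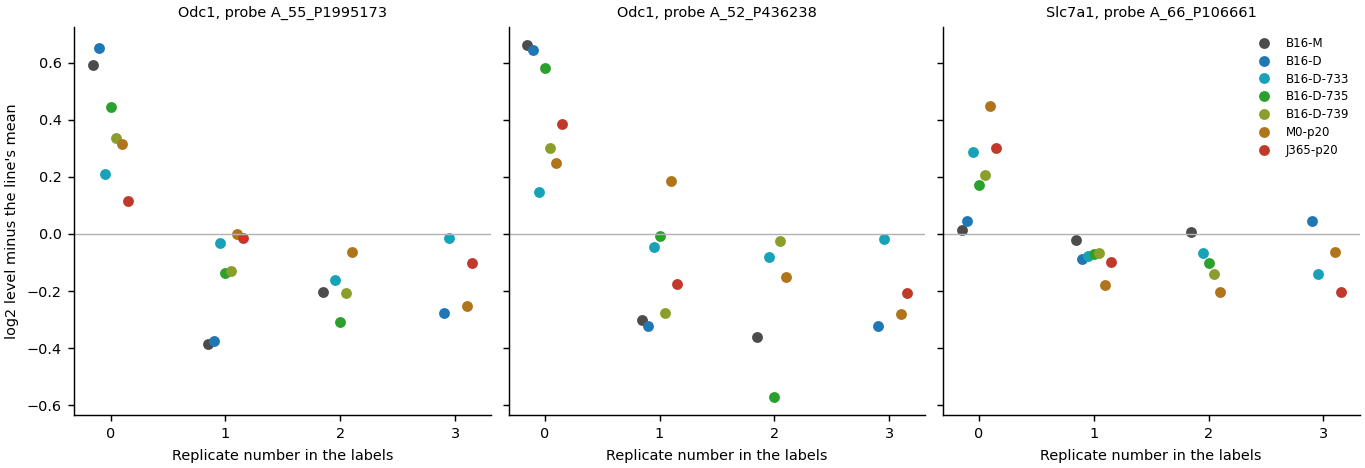
Level of both Odc1 probes and of Slc7a1 on each array minus the mean of its line (log2), by the replicate number in the labels, for the 23 arrays compared. Replicate 0 is the highest array of its line in 7 of 7 lines in each panel. For Slc7a1 another array lies close below it in B16-M and in B16-D.

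Other genes of arginine metabolism were taken as 7 lists with 62 genes, of which 60 had a probe. In leukemia 0 of the 48 genes tested and detected in both lines passed by limma (0.998% of all probes did). Of these 7 had an unadjusted p under 0.05 (7.05% of all probes did). The median difference was 0.16, against -0.01 over all probes. The list named aspartate and fumarate supply concerns the substrate and the by-product of arginine synthesis. All 7 of its genes had positive values, with a median of 0.25 and none past the threshold. It includes Asns, which does not supply aspartate but uses it to make asparagine (difference 0.42, adjusted p = 0.615 by limma). Within this list Got2, the mitochondrial aspartate aminotransferase, had 2.92, 3.89, 3.49 and 3.33 in M0-p20 against 4.11, 3.998 and 4.08 in J365-p20 (difference 0.66, adjusted p = 0.564 by limma). Srm, the spermidine synthase, had 3.43, 3.34, 3.08 and 2.83 against 3.97, 3.68 and 3.69 (difference 0.61, adjusted p = 0.471). Nos1, the neuronal nitric oxide synthase, was detected on 3 of 3 arrays of J365-p20 (-3.54, -3.90 and -4.16) and on 0 of 4 arrays of M0-p20. Its mean was 1.70-fold higher when each M0-p20 array took the higher of its lowest detected signal and the probe's own value. This is no lower bound, since the probe stood at -4.37 on M0-p20 replicate 1 without being detected. Nos1 met the filter only through J365-p20, and its test is not used. Of the 48 genes detected in both lines, 37 had a positive difference. The summed level of the 7 pigment cell markers was 0.57 to 1.36 in M0-p20 and 1.48 to 2.69 in J365-p20, where Mitf had a mean level of 0.66 and 1.83, Sox10 of -4.03 and -4.33, Pmel of -4.40 and -4.84 and Tyr of -3.57 and -3.28. Their part in these values was not tested.

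Srm and Prodh, the proline dehydrogenase that opens proline breakdown, rose in B16-D, and Nostrin, a regulator of the traffic of endothelial nitric oxide synthase, fell. These 3 of 52 list genes, or 5.77%, passed, a share near the 3.78% of all probes that did. Srm was at 3.86, 3.42 and 3.55 in B16-M and at 4.56, 4.28 and 4.22 in B16-D (difference 0.74, SE 0.18, adjusted p = 0.0367 by limma). Prodh was at 2.68, 2.39 and 2.82 against 3.85, 3.39 and 3.30 (difference 0.88, SE 0.17, adjusted p = 0.0130). Nostrin was at -2.88, -2.63 and -2.69 against -3.06, -3.61 and -3.95 (difference -0.81, SE 0.19, adjusted p = 0.0315). The arrays of the lines did not overlap for any of these 3 genes, nor did they for 18.9% of all probes. All 3 lost their call without B16-M replicate 1 (adjusted p = 0.163, 0.0706 and 0.130) or with B16-D replicate 2 kept (0.113, 0.0504 and 0.926). With slide as a block Prodh and Nostrin passed and Srm did not. Of the B16-D arrays compared, only replicate 0 carries no date in the title, and it was the highest of them for all 3 genes. With undated arrays alone the difference was 1.22 for Prodh, 0.94 for Srm and -0.33 for Nostrin. A single array gives no spread for B16-D, so these values are a description.

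In B16-D-733 4 of 52 list genes, or 7.69%, rose and 0 fell (near the 5.62% of all probes that passed, 3.02% upward). They were Nostrin (-1.51, -1.44, -1.47 and -1.33, difference 1.30, SE 0.17, adjusted p = 0.000507), Prodh (difference 0.67, adjusted p = 0.0276), Pycr3, which makes proline (0.40, adjusted p = 0.0293), and Sms, the spermine synthase (0.38, adjusted p = 0.0371). With the replicate number as a block, Nostrin and Prodh passed (adjusted p = 0.00222 and 0.0147), Pycr3 and Sms did not (0.0643 and 0.0511), and Nos3, the endothelial nitric oxide synthase, did, with -0.66 and an adjusted p of 0.0377 against 0.0603 without the block. Without B16-M replicate 1, Nostrin was the only one of these 4 that passed. With the arrays that carry no date its difference was 1.22, a description, since only 1 array of B16-D-733 was left. Brain markers summed to 2.95 to 3.15 in B16-D-733 and to 1.93 to 2.64 in B16-M, with 5 of 6 detected in both and Rbfox3, which defines neurons, in neither. Mbp, a myelin protein, had a mean level of 2.25 against 0.10, whereas Gfap (-4.33 against -3.69) and Mog (-1.83 against -1.63) were lower and Snap25 (1.70 against 1.63) and Aqp4 (-3.80 against -3.95) were near the parental level, and the part of these markers in these values was not tested.

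B16-D-735 differed from B16-M in 8 of 52 list genes, 5 higher and 3 lower (5.01% of all probes passed). Genes of aspartate and fumarate supply rose in 4 of 7 cases and fell in 0, and 3.0% of all probes rose. Got1, the cytosolic aspartate aminotransferase, went from 4.66, 4.23 and 4.32 to 5.61, 5.41 and 5.42 (difference 1.08, SE 0.21, adjusted p = 0.00916 by limma). Got2 (0.62, adjusted p = 0.0194), Slc25a12, which exports aspartate from mitochondria (0.50, adjusted p = 0.0129), and Fh1, the fumarate hydratase (0.50, adjusted p = 0.0143), rose less. Both genes named as dimethylarginine dimethylaminohydrolases, Ddah1 and Ddah2, fell. Ddah2 was at 0.27, 0.42 and 0.35 in B16-M and at -2.56, -2.45 and -2.03 in B16-D-735 (difference -2.69, SE 0.26, adjusted p = 3.41e-05), and Ddah1 went from -0.55, -1.08 and -0.92 to -1.99, -2.10 and -2.36 (difference -1.30, SE 0.15, adjusted p = 0.000161). The arrays of the lines did not overlap for either gene, nor did they for 20.7% of all probes. Nostrin rose by 1.65 (adjusted p = 0.000125), and Slc7a8, a neutral amino acid transporter, fell by 1.05 (adjusted p = 0.0116).

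In this line Got1, Ddah1, Ddah2, Nostrin and Slc7a8 passed without B16-M replicate 1, while Got2 (adjusted p = 0.0900), Slc25a12 (0.0659) and Fh1 (0.0687) did not. With B16-D replicate 2 kept, Nostrin in B16-D-735 had an adjusted p of 0.0951 and in B16-D-733 of 0.163, where that array stands at -1.16. The fibroblast markers summed to 0.13 to 0.60 in B16-D-735 and to -0.67 to -0.40 in B16-M, with 3 of 6 and 2 of 6 detected. Dcn was detected in B16-D-735 and not in B16-M, Pdgfra on 0 of 3 and on 3 of 3 arrays (mean -6.12 and -3.76), and Lum and Thy1 in neither. Col1a1 was detected on 3 of 3 and on 1 of 3 arrays (mean -3.92 and -4.87). Col1a2 was detected on all arrays of both lines (mean -0.15 and -0.89). The haematopoietic markers summed to -1.90 to -1.47 in B16-D-735 and to -0.16 to 0.52 in B16-M, with 2 of 7 detected in both and Lcp1 at -3.19 and -0.35. In B16-D-733 their sum was -2.24 to -1.58. The part of these markers in the list genes was not tested.

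**Figure D5:**
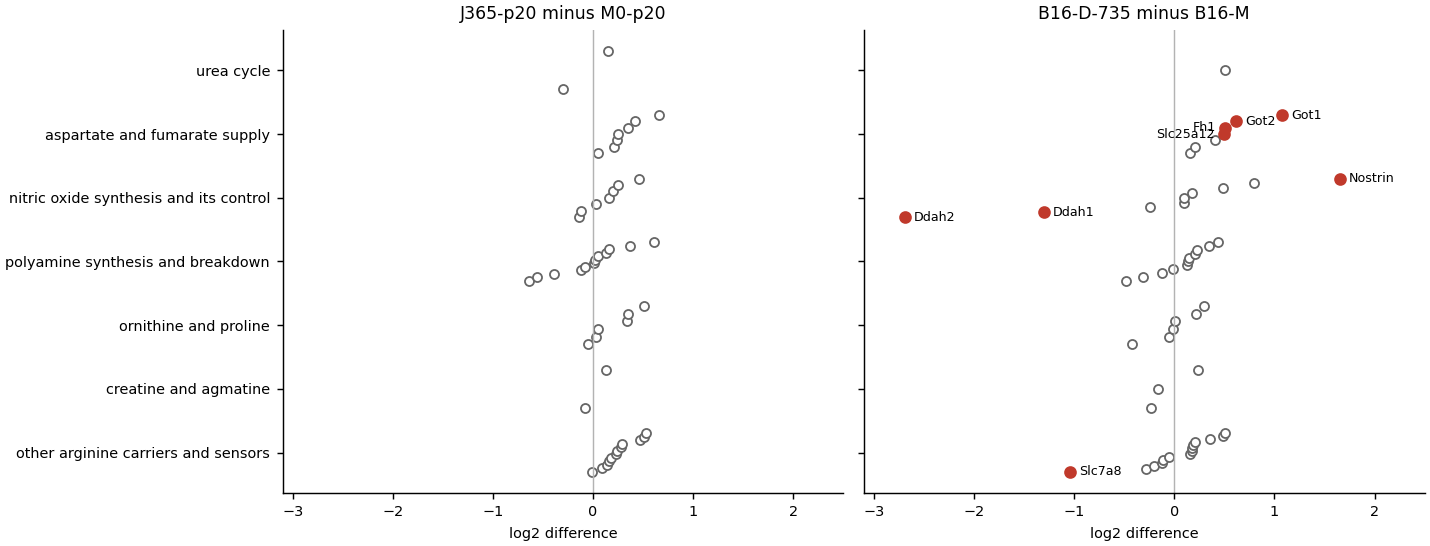
Difference (log2) of each tested gene of the 7 lists in dormant leukemia (left) and in B16-D-735 (right), with 1 point per gene and filled points past an adjusted p of 0.05. Genes detected in only 1 of the lines compared, or in neither, are not drawn (Nos1 in leukemia, Azin2 in B16-D-735). In leukemia none of the 48 genes drawn passes, while in B16-D-735 8 of 51 do, with Ddah2 lowest at -2.69 and Nostrin highest at 1.65.

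B16-D-739 had 0 of 52 list genes past the threshold by limma (3.71% of all probes passed), and 8 at an unadjusted p under 0.05, where 14.3% of all probes were. Its nearest was Srm (0.59, adjusted p = 0.0968), and with slide as a block Prodh passed. Nostrin thus had a negative difference in B16-D and positive ones in the brain lines, but these comparisons share the B16-M arrays, and the lines were not tested against each other.

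Genes beside Ass1 on its chromosome were compared as well. Of the 10 protein-coding genes with a probe on either side, 14 of 20 could be tested in leukemia, 0 passed (0.998% of all probes did), and their differences ran from -0.19 to 0.44 with a median of 0.14. In B16-D-735 Fnbp1 (-0.71), Ncs1 (-1.58) and Fam78a (-1.26) among 17 neighbours tested fell (5.01% of all probes passed), and in B16-D-733 Fam78a (-0.62) of 17 did (5.62%).

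Over the 23 arrays, the highest Pearson r with Ass1 among 14294 genes was that of Cth, the cystathionine gamma-lyase that makes cysteine (0.97). Jcad (0.92), Tiam1 (0.89), Lsm4 (0.89) and Ebag9 (0.88) followed. Cth and Jcad were detected on 0 of 4 arrays of M0-p20, where their values are those of the background, and on 3 of 3 arrays of J365-p20. Cth was at a mean of -1.23 in J365-p20 and -0.17 in B16-M. Among the members, Slc7a1 had an r of 0.81 (rank 94), Asl 0.55, Odc1 -0.01 and Nos2 -0.48. Within the 16 melanoma arrays alone Slc7a1 had 0.16 and Cth 0.63. The arrays share slides and lines, and the values over all arrays turn on the low level of M0-p20, for which Ass1 was chosen, so they describe these arrays and carry no test.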

How the data were processed

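Total RNA of 24 samples was labelled in one colour and hybridized to Agilent mouse arrays, and the authors deposited one scanner table per array, read with Agilent Feature Extraction 10.7.3.1 per the submitters' processing notes. The column used holds the processed signal, an intensity on a linear scale that the authors' scanner software had already corrected for background. The deposited series table held the same intensities on all 24 arrays, so no separate fit was run on it. From the 59305 spots that are no controls, 2468 spots marked as outliers were left out, and spots of one probe were averaged. The deposited intensities were divided by the 75th percentile of their array and taken as log2. The array design is annotated on build mm9, of which no coordinates are printed.

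The members and gene lists were chosen with earlier results of these data known. Groups and replicate numbers came from the sample titles. The title of B16-D-733 replicate 3 ends in the same number as that of replicate 1, so its number was assigned from the prefix of the title. Probes well above background on at least 3 arrays of a fit were tested with limma 3.58.1 in R 4.3.3, with adjusted p (Benjamini-Hochberg) over all probes of the fit and a threshold of 0.05. The leukemia fit held 7 arrays (29457 probes), the melanoma fit 16 arrays of all 5 lines, which share one estimate of the spread (31344 probes), and the difference between models 23 arrays (26788 probes). B16-D replicate 2 was left out of all. Both probes of Odc1 are reported, and for a list gene the probe with the highest mean level was taken. Named genes were the members, the list genes past the threshold and the 5 genes most correlated with Ass1. Genes named outside this rule (Got2, Srm and Nos1 in leukemia, Nos3 in B16-D-733, Srm and Prodh in B16-D-739, the neighbours of Ass1) were chosen after their values were seen.

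Replicate numbers were taken as pairing arrays where every same-numbered pair correlated above 0.1 in its deviations from the line means. This held for B16-D-733 (0.54, 0.34 and 0.80) and B16-D-739 (0.72, 0.56 and 0.81) against B16-M. The rule rests on these same data. Same-numbered arrays of B16-D-739 and B16-M lie on the same slides, so number and slide cannot be told apart there. In B16-D-733 only replicate 2 shares its slide. In B16-D-735 none does, and replicates 0, 1 and 2 gave 0.79, -0.32 and -0.33. The number of arrays limits the precision, and the pipeline was tested on simulated data. Alternatives were quantile normalization, normexp (offset 50, on the median signal, since no mean signal was in the tables used), other filters, slide or replicate number as a block, fits of only the lines compared, fits of only arrays with no date in the title (added after seeing the data), one probe or the mean of the probes for Odc1 and leaving out each array.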

Additional observations from a re-analysis of the deposited data

Results flagged for a closer look

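Of 27 sets of 4 arrays of a line, 4 held an array whose gap to the nearest other took up nearly the whole range, where chance gives about 1 in 20. Asl stood at 1.65 on M0-p20 replicate 1, above the other arrays of that line by 0.836 of the range. Nos2 stood at -2.52 on B16-D-733 replicate 2 (0.988 of the range), the one array of that line on slide 1. Slc7a2 stood at -3.20 on M0-p20 replicate 2 (0.900 of the range), the only array of that line on which it was well above background. Arg2 stood at -5.57 on M0-p20 replicate 3 (0.950 of the range) and was not well above background there. On B16-D replicate 2, the array left out of the comparisons, Arg1 (-2.95), Arg2 (-3.09) and Slc7a2 (-3.79) were well above background.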

How the results depend on the processing

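Ass1 in leukemia was 5.32 and became 4.63 with normexp, with 5.14 to 5.43 when single arrays were left out. Of 585 values for 34 member results under the alternatives, 542 kept their direction and their side of the threshold, and 4, all of Odc1, became calls. With the replicate block 2 member probes passed in B16-D (Odc1, 0.77 and 0.97, adjusted p = 0.0299 and 0.0352 by limma) and 1 in B16-D-733. In B16-D same-numbered arrays did not meet the rule for pairing (0.28 and 0.04). Leaving out single arrays gave 0 to 1 in B16-D, the call being the dimmer Odc1 probe without B16-M replicate 0 (1.33, adjusted p = 0.0490). Without B16-D replicate 0 the Odc1 values in B16-D were smallest, at 0.47 on the brighter probe and 0.68 on the dimmer one. The cause of these changes was not tested.

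Signs changed for 16 results of at most 0.60 in size, none of them a call. With normexp Asl was 0.0008 in leukemia and -0.0294 in B16-D-733, and Slc7a1 0.0075 in B16-D-735 and 0.0254 in B16-D-739. With quantile normalization Ass1 was -0.075 in B16-D and Slc7a1 -0.0799 in B16-D-733. With slide as a block B16-D gave -0.062 for Ass1, 0.0122 for Nos2 and 0.0461 for Slc7a1. With the replicate block Nos2 was 0.0762 in leukemia and -0.0367 in B16-D-733. With only arrays that carry no date in the title, a choice made after seeing the data, Slc7a1 was 0.037 in B16-D and Asl -0.1393 in B16-D-733. Keeping B16-D replicate 2 gave -0.27 for Ass1 in B16-D. Leaving out single arrays gave, in leukemia, -0.15 to 0.077 for Asl, -0.44 to 0.17 for Nos2 and -0.0237 to 0.27 for the dimmer Odc1 probe. In B16-D it gave -0.65 to 0.35 for Ass1 and -0.0309 to 0.0364 for Slc7a1. In B16-D-733 it gave -0.0185 to 0.13 for Asl, -0.18 to 0.81 for Nos2 and -0.0463 to 0.10 for Slc7a1. In B16-D-735 it gave -0.69 to 0.50 for Nos2, -0.003 to 0.51 and -0.10 to 0.52 for Odc1, and -0.0917 to 0.0449 for Slc7a1. In B16-D-739 it gave -0.0143 to 0.25 for Asl, -0.42 to 0.83 for Nos2 and -0.13 to 0.0425 for Slc7a1.

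Over all probes the calls were 294 in leukemia, 1184 in B16-D, 1762 in B16-D-733, 1569 in B16-D-735, 1164 in B16-D-739 and 331 for the difference between models. Probes above background on every array gave 116 in leukemia and 219 for the difference. With slide as a block the counts were 2884, 2784 and 1915 in the brain lines and 576 for the difference. B16-D had 786 with normexp and 652 with no filter, which gave 668 for the difference. Arrays with no date in the title gave 731 in B16-D and 479 in B16-D-733. Fits of the lines compared alone gave 112 in B16-D, 667 in B16-D-735, 625 in B16-D-739 and 143 for the difference. Leaving out single arrays gave 134 (J365-p20 replicate 1) to 332 in leukemia, and 246 to 479 for the difference. Without B16-M replicate 1 the counts were lowest in the 4 melanoma lines, with ranges of 498 to 1277, 922 to 1647, 916 to 1279 and 691 to 961. The replicate block gave 209 in leukemia, 1571 in B16-D, 2155 in B16-D-733, 1998 in B16-D-735, 1468 in B16-D-739 and 315 for the difference. Arg1, Arg2 and Slc7a2 lay near the background, where these arrays cannot show a fall or a small change. None of these genes was detected on any array of J365-p20.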
